A study of Mus musculus with 6 samples.

Results

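Chromatin accessibility was examined at the 9 genes of the oxygen-sensing HIF pathway in white blood cells of mice during high-altitude de-acclimatization (HADA). The genes were the subunits Hif1a, Epas1, Hif3a and Arnt, the prolyl hydroxylases Egln1, Egln2 and Egln3, the asparaginyl hydroxylase Hif1an, and Vhl. A peak belonged to a gene when its summit, the point of highest coverage, lay in the gene body or within 3 kb of an annotated transcription start. By this rule 22 of the 62876 accessible regions found across all libraries belonged to the 9 genes, 8 at the subunits and 14 at the hydroxylases and Vhl. The rule uses what the genes encode and no measured value, although the genes were chosen with earlier results of these data known.

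ATAC-seq marks open chromatin by inserting sequencing adapters with the Tn5 transposase. It was run on 3 control and 3 HADA libraries of peripheral blood after lysis of red cells. Per the study's methods, the mice were C57BL/6j males bought at 8 weeks of age. HADA mice lived in a hypobaric hypoxia chamber for 4 weeks and then returned to normal oxygen, where they were followed for another 4 weeks, and control mice stayed in normal oxygen. The day of sampling for ATAC-seq was not given in the sources used here. The labels and the study's methods call the cells leukocytes. The study's account of its results names mononuclear cells instead, a preparation in which neutrophils would be scarce. Either way each library was a mixture of cell types, and fewer cells of a type and less accessibility per cell cannot be told apart in such samples. The labels do not say that the libraries of a group came from separate mice, so the p-values below measure the spread between these libraries, which may be technical.

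HIF is a pair of proteins. An oxygen-labile alpha subunit, HIF-1α from Hif1a or HIF-2α from Epas1, binds the stable partner ARNT, and the dimer switches on genes with the short hypoxia response element. In oxygen, the EGLN enzymes hydroxylate the alpha subunit on prolines, and VHL then marks it for destruction. FIH, encoded by Hif1an, hydroxylates an asparagine and blocks coactivator binding. Egln3 and, to a lesser degree, Egln1 are themselves HIF target genes, and in blood HIF-1α is known for its role in the metabolism and survival of myeloid cells.

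Sequence at selected regions is printed first, since the results refer back to it. Each stretch is from GRCm39, is written 5′ to 3′ on the strand of its gene, and carries motif matches in capitals. Motifs were searched on both strands. They were the core of the hypoxia response element (HRE, ACGTG or GCGTG), an antioxidant response element core (ARE, TGACNNNGC), AP-1 (TGANTCA), PU.1 (GAGGAAGT), C/EBP (TTGCNNAA) and CTCF (the core of its consensus). The first 3 lines are the 150 bases before the first start of the active start cluster of Hif1a (chr12:73954420-73954569, plus strand), Epas1 (chr17:87060937-87061086, plus strand) and Arnt (chr3:95341215-95341364, plus strand), shown because these subunit genes had a peak at the start in every library. In Hif1a the capitals are a palindrome that matches on both strands.
Hif1a: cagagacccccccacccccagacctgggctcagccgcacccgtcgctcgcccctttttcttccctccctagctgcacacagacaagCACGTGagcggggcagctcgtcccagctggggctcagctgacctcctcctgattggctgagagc
Epas1: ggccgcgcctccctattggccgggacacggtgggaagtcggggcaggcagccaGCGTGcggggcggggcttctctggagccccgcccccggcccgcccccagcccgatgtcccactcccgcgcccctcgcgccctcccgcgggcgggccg
Arnt: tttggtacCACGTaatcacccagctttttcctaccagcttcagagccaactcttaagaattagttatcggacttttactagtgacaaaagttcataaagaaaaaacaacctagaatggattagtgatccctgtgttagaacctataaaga

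The next 4 lines are windows of up to 300 bases around the summits of intronic regions whose presence or height differed between libraries. The Egln3 window lay in intron 1 (chr12:54238672-54238971, minus strand), and its capitals are an HRE core followed by an ARE core. The Arnt window lay in intron 2 (chr3:95357839-95358138, plus strand), with an HRE core and an AP-1 match. The Egln2 window lay in intron 3 (chr7:26859370-26859665, minus strand), with a CTCF match. The Egln1 window lay in intron 3 (chr8:125638794-125639093, minus strand), where a C/EBP and a PU.1 match overlapped by 1 base.
Egln3: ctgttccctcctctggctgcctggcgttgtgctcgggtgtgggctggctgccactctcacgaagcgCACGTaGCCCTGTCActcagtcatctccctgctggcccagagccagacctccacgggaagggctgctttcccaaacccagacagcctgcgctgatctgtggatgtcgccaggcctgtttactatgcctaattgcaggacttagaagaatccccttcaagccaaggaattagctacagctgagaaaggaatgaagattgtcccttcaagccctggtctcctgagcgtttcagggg
Arnt: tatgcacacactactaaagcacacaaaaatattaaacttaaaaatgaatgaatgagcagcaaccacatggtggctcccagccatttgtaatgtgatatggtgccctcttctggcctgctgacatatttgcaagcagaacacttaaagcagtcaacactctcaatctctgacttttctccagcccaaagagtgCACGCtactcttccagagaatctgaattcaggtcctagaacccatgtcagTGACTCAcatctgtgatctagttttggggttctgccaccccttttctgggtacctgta
Egln2: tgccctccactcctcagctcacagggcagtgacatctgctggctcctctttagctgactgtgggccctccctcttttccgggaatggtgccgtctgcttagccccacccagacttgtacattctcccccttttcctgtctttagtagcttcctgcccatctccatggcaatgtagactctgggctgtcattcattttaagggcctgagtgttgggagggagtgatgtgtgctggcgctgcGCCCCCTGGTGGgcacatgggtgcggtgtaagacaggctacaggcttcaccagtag
Egln1: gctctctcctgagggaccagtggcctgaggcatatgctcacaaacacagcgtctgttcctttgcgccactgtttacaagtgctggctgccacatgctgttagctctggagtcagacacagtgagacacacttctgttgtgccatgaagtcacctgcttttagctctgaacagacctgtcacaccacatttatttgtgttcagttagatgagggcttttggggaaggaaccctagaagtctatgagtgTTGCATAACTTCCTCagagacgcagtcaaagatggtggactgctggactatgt

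A match is a description of letters and not a binding site. The HRE core was in 28.9% of the 150-base stretches before 21757 protein-coding genes and in 47.2% of 300-base windows at the 23963 shared regions with full sequence, so its presence was common. In the shared-region windows the ARE core was found in 13.3%, AP-1 in 7.30%, PU.1 in 6.94%, C/EBP in 10.8% and CTCF in 1.61%. Of the 7 genes whose 150 bases before the start held no exon, the 3 subunit genes had an HRE core there, and Egln2, Egln3, Hif1an and Vhl had none. In the 300 bases around the promoter summits, which reach into an exon of the gene except at Epas1, matches were counted at 4 positions for Vhl, at 3 for Egln2, at 1 each for Hif1a, Epas1, Arnt, Egln3 and Hif1an, and at 0 for Egln1.

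The libraries differed in the number of peaks, in the height of summits and in accessibility at marker genes of blood cells. Whether they differed in total reads was not examined. Peak lists held 34045 to 41475 peaks in the controls and 44044 to 45799 in HADA. Control 3 had the fewest peaks. The summit pileup, the number of overlapping fragments at the summit, was 49 to 58 at the median shared region of control libraries and 77 to 92 in HADA libraries. Heights below are therefore also given relative to the median of the 23970 regions that had a peak in all 6 libraries. The summed relative height of peaks at 8 B cell markers was 1.96 to 16.2 in the controls and 40.1 to 43.5 in HADA, and at 8 neutrophil markers, of which Camp had no peak, it was 10.5 to 29.7 in the controls and 4.19 to 7.08 in HADA. At the B cell markers the lowest library was control 3, and at the neutrophil markers the highest library was control 3. Of the erythroid and platelet markers, Hba-a1, Alas2 and Gp9 had no peak and Klf1 was higher in HADA (log2 difference 0.64). For NK cell markers the summed relative height was 0.429 to 1.16 in the controls and 1.07 to 1.78 in HADA. A missing peak adds nothing to such a sum, so all these sums mix the number of peaks with their height. The NK markers had 1 to 3 peaks in control libraries and 3 to 5 in HADA libraries. Prf1, the NK marker with a shared start region, passed in neither direction (log2 difference 0.32, limma adjusted p = 0.360). For eosinophil and basophil markers it was 1.90 to 2.53 in the controls and 3.16 to 3.69 in HADA, where of 3 shared regions 1 passed as higher and 1 as lower.

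Every one of the 9 genes had at least 1 accessible region, and 8 of them had a peak at a start in every library. The exception was Hif3a, a subunit gene whose products can restrain the other HIFs. At the 9 genes 17, 17 and 13 peaks were found in controls 1 to 3 and 17, 16 and 17 in HADA 1 to 3. Relative to all peaks of a library this was 4.01 ± 0.170 per 10000 peaks in the controls and 3.72 ± 0.0986 in HADA (SD, n = 3 libraries each, two-sided exact permutation p = 0.2, where the smallest p that 3 against 3 allows is 0.1). The subunit genes held 1.26 ± 0.329 peaks per 10000 in the controls and 1.56 ± 0.199 in HADA (exact permutation p = 0.3). The hydroxylase genes and Vhl held 2.75 ± 0.160 in the controls and 2.16 ± 0.276 in HADA (exact permutation p = 0.1). Only in the last comparison did all HADA libraries lie on one side of all controls, and it did not hold when each library was reduced to its 34045 strongest peaks, where the difference shrank from -0.591 to -0.196 per 10000.

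**Figure D1:**
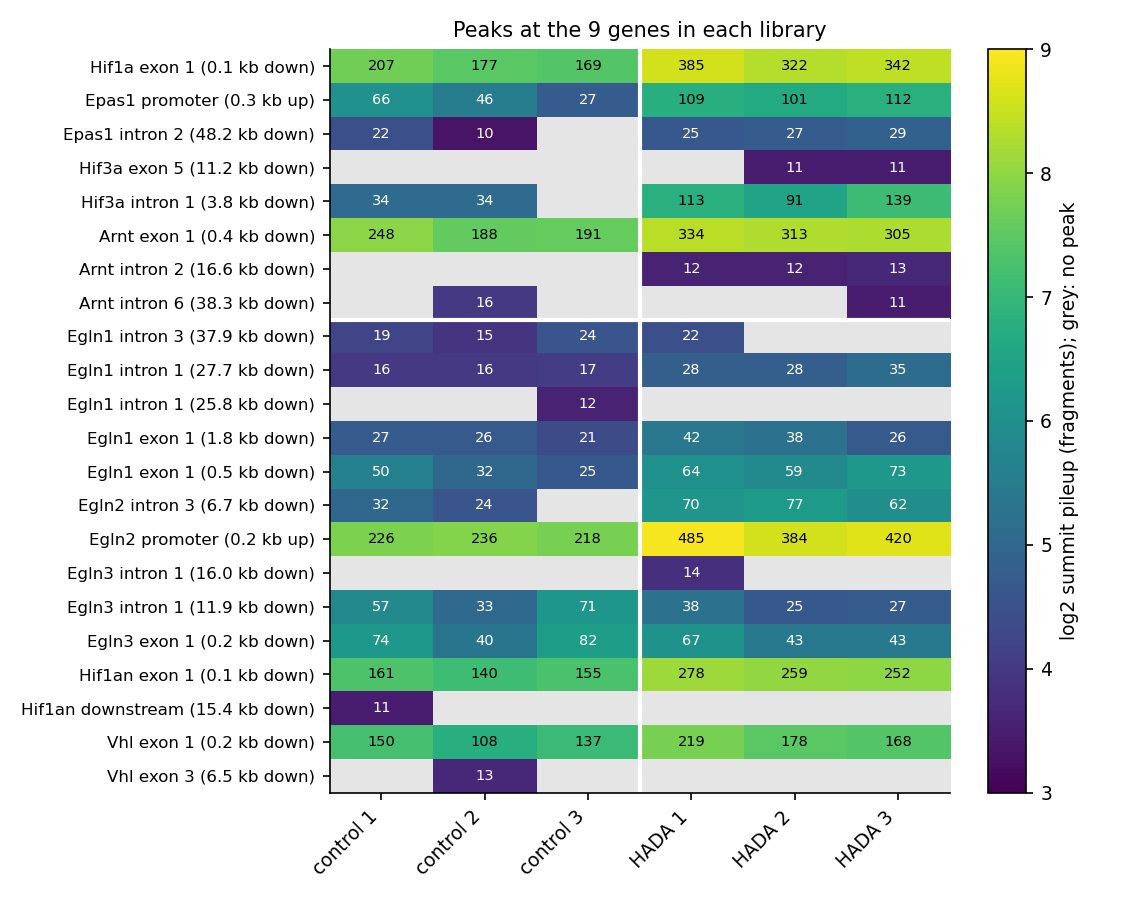
Summit pileup in fragments of the 22 regions at the 9 genes in each of the 6 libraries, with the value printed in each cell, colour on a log2 scale and grey where the library had no peak. Labels give the place in the canonical transcript and the distance from its start, and the white line separates the subunit genes (above) from the hydroxylases and Vhl. Rows with grey cells are low regions, with pileups mostly under 40, apart from Hif3a intron 1 and Egln2 intron 3 in HADA.

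Of the 22 regions, 11 had a peak in all 6 libraries, 3 at subunit genes and 8 at the hydroxylases and Vhl. The other 11 were found in 1 to 5 libraries. Only the first 11 could be tested for height, so the test leaves out Hif3a. In the limma test over all shared regions with Benjamini-Hochberg adjustment, 0 of the 11 passed as higher in HADA and 2 passed as lower, both at Egln3. Across all 23970 shared regions 18.4% passed as higher and 24.5% as lower. At an unadjusted p under 0.05 the count was 4 of 11, against 53.2% of all shared regions. The groups did not overlap, with HADA higher, at 3 of the 11 regions (Hif1a, Epas1 and Egln2), against 29.3% of all shared regions. They did not overlap with HADA lower at 1 region, in Egln3, against 31.2%. The shares at the 9 genes were thus below or near those of the genome as a whole, and counts this small carry no further reading. The median log2 difference was 0.17 over the 11 regions. It was 0.11 over the 11881 shared regions at starts of protein-coding genes, where 21.4% passed as higher and 9.88% as lower. Over the other shared regions it was -0.46, and 15.5% passed as higher and 38.8% as lower. The Egln3 intron region is of this last kind.

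Hif1a, which encodes the alpha subunit that is stabilised in low oxygen, had 1 region, at chr12:73954262-73955454. Its summit lay in the untranslated part of exon 1, 6 bp from an annotated start, and it also lies over the gene Gm15283. The pileup was 207, 177 and 169 fragments in controls 1 to 3 and 385, 322 and 342 in HADA 1 to 3. All HADA libraries were higher than all controls. Relative to the median shared region the height was 3.41 ± 0.178 in the controls and 4.20 ± 0.0225 in HADA (SD, n = 3 each), which places the start of Hif1a at the 90.3 percentile of shared regions. The log2 difference was 0.30 ± 0.13 (SE, limma, adjusted p = 0.0808), so it missed the threshold. It passed with pileups taken over the library background (0.68, limma adjusted p = 0.0162), after quantile normalization (0.42, limma adjusted p = 0.0174), among peaks of high confidence (0.31, limma adjusted p = 0.0384) and without control 3 (0.31, limma adjusted p = 0.0320).

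Among 11880 other shared regions at protein-coding starts, those of Suclg1, Zfp706, Rad52, Rhof and P2ry10b had heights most like those of Hif1a over the 6 libraries. Their Euclidean distances to the Hif1a profile, in median-centred log2 height, were 0.0454 to 0.0707, and the median distance over all was 0.627. Their log2 differences, 0.25 to 0.31, lie near the 0.30 of Hif1a by the way they were chosen.

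Epas1 encodes HIF-2α, the alpha subunit with a narrower range of cell types. Its start region, chr17:87060346-87062564, peaked at -349 bp from the canonical start and lies over Gm56887. The pileup was 66, 46 and 27 fragments in the controls and 109, 101 and 112 in HADA. Control 3 was the lowest, and all HADA libraries were higher than all controls. The relative height was 0.842 ± 0.293 in the controls and 1.29 ± 0.100 in HADA (SD, n = 3 each), and the log2 difference was 0.68 ± 0.26 (SE, limma, adjusted p = 0.0603). It fell to 0.40 without control 3 (limma adjusted p = 0.0874), rose to 0.93 without control 1 (limma adjusted p = 0.0166) and was 1.06 with pileups taken over background (limma adjusted p = 0.00246). When regions were ranked by the fold enrichment of the peak caller instead, the difference was -0.02 normal scores (limma adjusted p = 0.954). A second Epas1 region in intron 2, 48.2 kb from the start, had pileups of 22 and 10 in controls 1 and 2, no peak in control 3 and 25, 27 and 29 in HADA.

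Arnt encodes the partner that every alpha subunit needs. Its start region, chr3:95341208-95342281, had pileups of 248, 188 and 191 in the controls and 334, 313 and 305 in HADA. The relative heights were 3.86 ± 0.430 and 3.82 ± 0.222 (SD, n = 3 each), and the groups overlapped. The log2 difference was -0.01 (95% CI -0.33 to 0.31, limma adjusted p = 0.950), and its sign changed with the scaling, to 0.37 when divided by the background and 0.11 after quantile normalization.

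The intron 2 region of Arnt, 16.6 kb from the start, was the single region of the 22 with a peak in every HADA library and in no control. Across all 62876 regions 7.01% had this pattern, and 1.88% had the reverse, which no region of the 9 genes had. Its pileups were 12, 12 and 13, close to the lowest pileup of any peak, which was 7 to 8 in control lists and 8 to 9 in HADA lists. The region was in no list after peaks under a −log10 q-value of 10 were left out, nor when each list was reduced to its 34045 strongest peaks. In the sequence above its window holds an HRE core and an AP-1 match. The remaining Arnt region, in intron 6, was found in control 2 and HADA 3, and the 50 bases at its summit occur 9 times in the genome, so reads there may be shared between copies.

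Hif3a had no region in all 6 libraries. The stronger region lay in intron 1, 3.8 kb from the canonical start, near a start of the neighbouring transcript 4833404L02Rik, to which it may belong. Its pileup was 34 and 34 in controls 1 and 2, with no peak in control 3, and 113, 91 and 139 in HADA. The HADA values were all above those of both controls with a peak, and the relative height was 0.586 and 0.618 in those controls and 1.18 to 1.72 in HADA. No test was made, because 1 library had no peak. The weaker region, over coding sequence of exon 5, had pileups of 11 in HADA 2 and HADA 3 and no peak elsewhere.

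**Figure D2:**
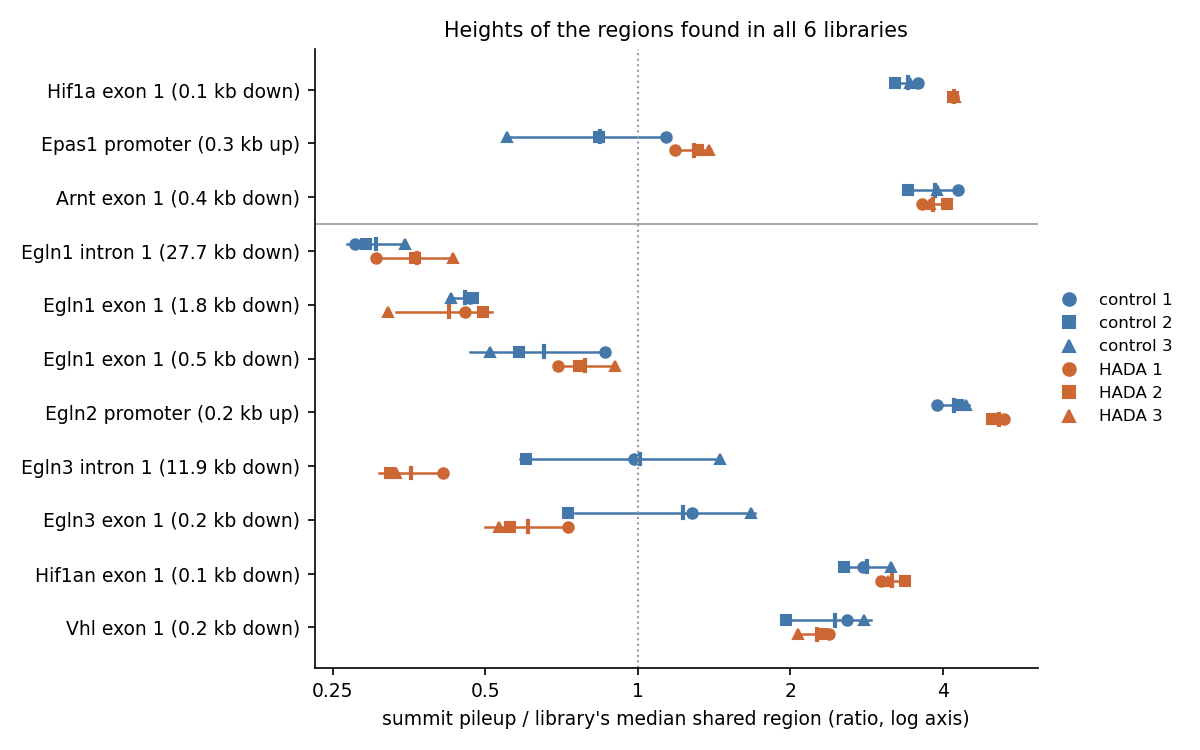
Relative height (summit pileup over the library's median shared region, a ratio on a log axis) of the 11 regions found in all 6 libraries, with control in blue, HADA in orange, 1 symbol per library, vertical ticks at the means and horizontal bars of 1 SD. Starts of Hif1a, Arnt, Egln2, Hif1an and Vhl lie above the median shared region at 1, the Egln1 regions lie below it, and the Egln3 intron is the only one where all HADA libraries are below all controls.

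Egln3 encodes PHD3, a prolyl hydroxylase that low oxygen induces and that is known in neutrophils. Both of its shared regions were lower in HADA. The region in intron 1, at chr12:54237927-54239296 and 11.9 kb downstream of the start, had pileups of 57, 33 and 71 in controls 1 to 3 and 38, 25 and 27 in HADA 1 to 3. In raw pileup control 2 lay below HADA 1. Relative to the median shared region the control values were 0.983, 0.60 and 1.45 and the HADA values 0.413, 0.325 and 0.333, with no overlap. The log2 difference was -1.42 ± 0.32 (SE, 95% CI -2.14 to -0.70, limma, adjusted p = 0.0103), which corresponds to a 2.67-fold lower height in HADA. It was lower in HADA in all 3 libraries, and the two-sided exact permutation test gave its floor of 0.1.

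The start region of Egln3, chr12:54249339-54250933, peaked 172 bp into exon 1. Its pileup was 74, 40 and 82 in the controls and 67, 43 and 43 in HADA. The relative height was 1.23 ± 0.475 in the controls and 0.606 ± 0.107 in HADA (SD, n = 3 each), and HADA 1 (0.728) lay just above control 2 (0.727). The log2 difference was -0.95 ± 0.30 (SE, limma, adjusted p = 0.0334). The remaining Egln3 region, in intron 1 and 16.0 kb from the start, was found in HADA 1 alone, with a pileup of 14.

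The 2 Egln3 regions differed in how firmly they held. The intron region passed in each of the 6 fits that left out 1 library, with log2 differences of -1.75 to -1.11 and limma adjusted p of at most 0.0480. The smallest difference, -1.11, came without control 3 (limma adjusted p = 0.0105). The start region stayed lower in all 6 of those fits, with log2 differences of -1.28 to -0.68, and it kept the call among peaks of high confidence and with an overlap of 200 bp (limma adjusted p of 0.0334 in both). It lost the call in 5 of the 6: without control 1 (-0.88, limma adjusted p = 0.0819), without control 3 (-0.68, limma adjusted p = 0.0598), and without HADA 1, HADA 2 or HADA 3 (-1.09, -0.90 and -0.86, with limma adjusted p of 0.0520, 0.109 and 0.107). It was also lost with pileups divided by the background (-0.57, limma adjusted p = 0.117) and after quantile normalization (-0.83, limma adjusted p = 0.0547). By the rank of the fold enrichment, neither region passed (-0.45 normal scores each, limma adjusted p = 0.177 for the intron and 0.156 for the start).

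Neutrophil and monocyte markers moved with the Egln3 regions. All 5 neutrophil markers with a shared start region passed as lower in HADA, with a median log2 difference of -2.05. They were the calcium-binding protein genes S100a8 (-2.31) and S100a9 (-2.08), the chemokine receptor gene Cxcr2 (-2.05), the G-CSF receptor gene Csf3r (-1.44) and the gelatinase gene Mmp9 (-0.72). The monocyte markers Csf1r (-0.94), Cx3cr1 (-1.11) and Fcgr1 (-1.13) passed as lower as well, and the summed relative height over the monocyte list was 6.55 to 7.61 in the controls and 3.99 to 4.64 in HADA. The summed height over neutrophil markers was 13.8, 10.5 and 29.7 in controls 1 to 3 and 7.08, 5.45 and 4.19 in HADA 1 to 3. Control 3 was the highest library in this sum and at both Egln3 regions, and it was also the highest over the 7 housekeeping genes (62.4, against 38.7 to 46.2 in the other libraries), so this order was not particular to neutrophil markers. The part of the cell mixture in the Egln3 result was not tested.

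**Figure D3:**
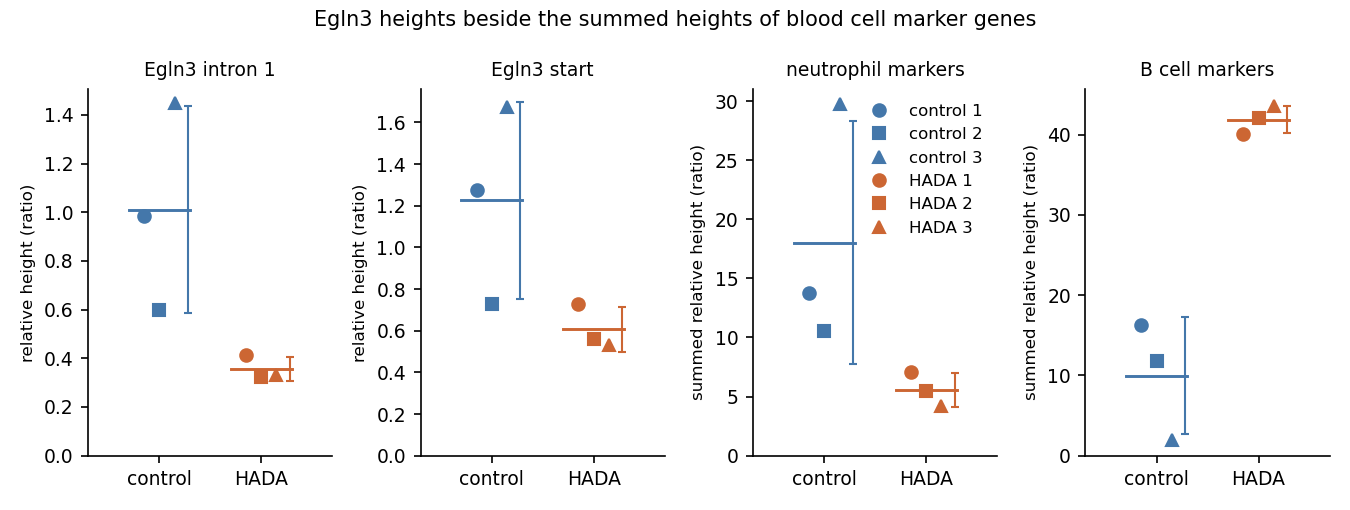
Relative height (ratio to the median shared region) of the Egln3 intron 1 and start regions, and summed relative heights over the neutrophil and B cell marker genes, for each of the 3 control and 3 HADA libraries, with horizontal lines at the means, bars of 1 SD and all vertical axes from 0. Both Egln3 regions and the neutrophil markers are highest in control 3, and the B cell markers are 1.96 to 16.2 in the controls and 40.1 to 43.5 in HADA.

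Egln2 encodes PHD1. Its start region, chr7:26865541-26866951, was the tallest of the 9 genes and stood at the 93.9 percentile of shared regions. The pileup was 226, 236 and 218 in the controls and 485, 384 and 420 in HADA, and all HADA libraries were higher. The relative height was 4.21 ± 0.285 in the controls and 5.15 ± 0.146 in HADA (SD, n = 3 each), and the log2 difference was 0.29 ± 0.13 (SE, limma, adjusted p = 0.0940). As at Hif1a it passed when divided by the background (0.67, limma adjusted p = 0.0144), after quantile normalization (0.46, limma adjusted p = 0.0112), among peaks of high confidence (0.30, limma adjusted p = 0.0471) and without control 3 (0.33, limma adjusted p = 0.0217). By the rank of fold enrichment it was -0.14 normal scores (limma adjusted p = 0.597). The intron 3 region of Egln2, whose window holds a CTCF match, had pileups of 32 and 24 in controls 1 and 2, no peak in control 3 and 70, 77 and 62 in HADA.

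B cell markers, and some T cell markers, were higher in HADA, as were Hif1a, Epas1 and Egln2. Among the controls the order of libraries was not shared by all. The summed relative height over B cell markers was 16.2, 11.7 and 1.96 in controls 1 to 3. The relative height fell in that order at Epas1 (1.14, 0.836 and 0.551) and rose at Egln2 (3.90, 4.29 and 4.45). At Hif1a it did neither (3.57, 3.22 and 3.45). The B cell markers Pax5 (log2 difference 2.02), Ms4a1 (1.97) and Cd79b (1.50) passed as higher in HADA at their starts. Of 4 T cell markers with a shared start region 2 passed as higher, Lck (0.90) and Cd3e (0.55), while Cd4 (0.15) and Cd3d (-0.31) passed in neither direction. Over all 10 shared regions of the T cell list 2 passed as higher and 0 as lower, with a median log2 difference of 0.14. The shares over all shared regions were 18.4% and 24.5%. The summed relative height over all peaks of the T cell list was 12.1 to 13.6 in the controls and 15.8 to 16.7 in HADA. In the study's own blood measurements the percentage of T cells was reduced on some days. Later in de-acclimatization lymphocytes and B cells rose, and neutrophils and monocytes declined. The part of these cells in the differences at Hif1a, Epas1 and Egln2 was not tested.

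Egln1 encodes PHD2, the main oxygen sensor of the pathway, and had the most regions, 5, of which 3 were shared. All 3 were low, with mean relative heights of 0.305 to 0.651 in the controls and 0.367 to 0.788 in HADA. The start region, chr8:125676139-125676983, had pileups of 50, 32 and 25 in the controls and 64, 59 and 73 in HADA, and the relative heights overlapped. Its log2 difference was 0.30 (95% CI -0.25 to 0.86, limma adjusted p = 0.339). A region over the coding part of exon 1, chr8:125674679-125675466, differed by -0.13 (95% CI -0.68 to 0.43, limma adjusted p = 0.693), with a sign that turned when divided by the background (0.25) or quantile normalized (0.14). A region in intron 1, chr8:125648346-125649652, differed by 0.26 (95% CI -0.30 to 0.82, limma adjusted p = 0.417). The intervals of the start and the intron 1 regions include 0.68, the difference at Epas1.

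Another Egln1 region, in intron 3, was found in the 3 controls with pileups of 19, 15 and 24, in HADA 1 with 22, and in neither HADA 2 nor HADA 3. HADA 1 thus decides how it is counted, and without HADA 1 it would be control-only. Its window, printed above, holds a C/EBP and a PU.1 match, motifs named for factors with roles in myeloid cells and, for PU.1, also in B cells. The remaining Egln1 region was found in control 3 alone.

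Hif1an encodes FIH, the asparaginyl hydroxylase. Its start region, chr19:44550927-44551614, had pileups of 161, 140 and 155 in the controls and 278, 259 and 252 in HADA, and relative heights of 2.83 ± 0.312 and 3.17 ± 0.177 (SD, n = 3 each) that overlapped. The log2 difference was 0.17 (95% CI -0.15 to 0.49, limma adjusted p = 0.359). By the rank of fold enrichment Hif1an was the single region of the 11 to pass, 0.69 normal scores higher in HADA (limma adjusted p = 0.0218). There the fold enrichment over local background was 14.1 to 15.1 in the controls and 18.1 to 19.3 in HADA, with no overlap.

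Vhl encodes the recognition subunit of the ubiquitin ligase that removes hydroxylated HIF. Its start region, chr6:113600682-113601838, had pileups of 150, 108 and 137 in the controls and 219, 178 and 168 in HADA. The relative heights, 2.45 ± 0.433 and 2.26 ± 0.161 (SD, n = 3 each), overlapped, and the log2 difference was -0.11 (95% CI -0.49 to 0.28, limma adjusted p = 0.635). The sign turned to 0.27 with pileups taken over background and to 0.38 normal scores by fold rank. Hif1an and Vhl each had 1 further region, in control 1 and control 2 respectively.

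**Figure D4:**
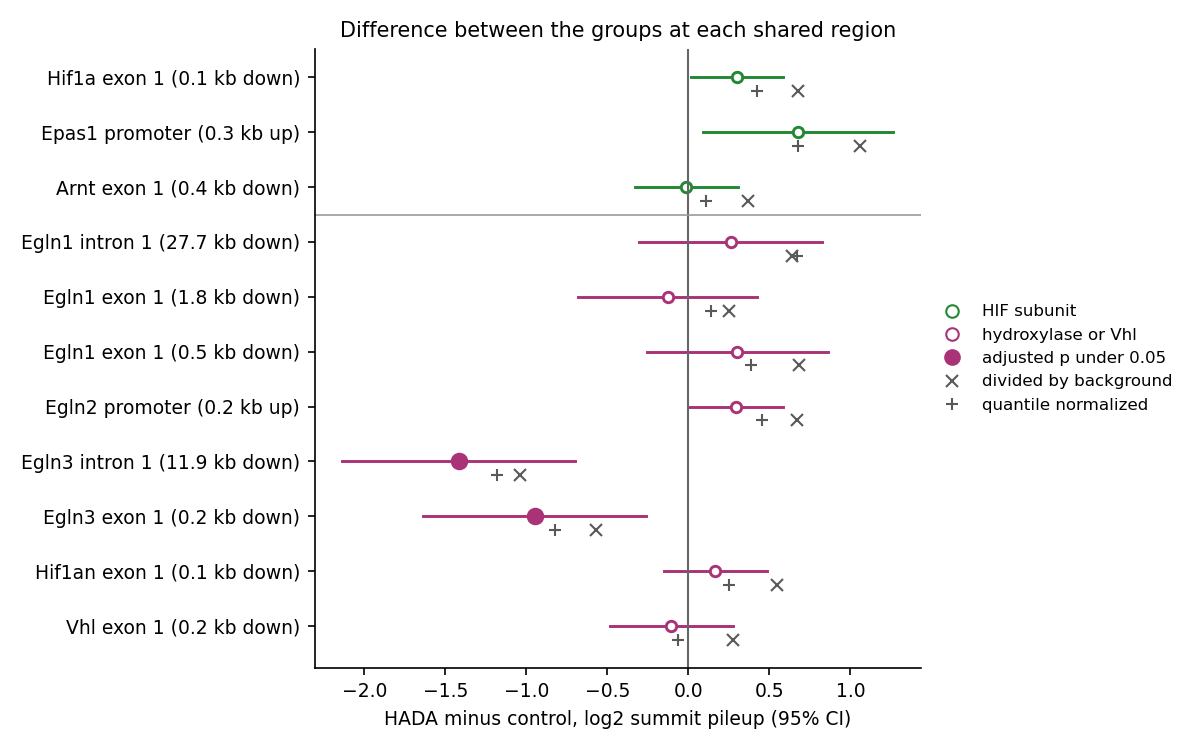
Log2 difference in summit pileup (HADA minus control, median-centred, x axis) of the 11 shared regions with 95% confidence intervals from limma, subunits in green and hydroxylases and Vhl in purple, filled where the adjusted p was under 0.05. Crosses and plus signs give the value after division by the library background or quantile normalization: both Egln3 regions stay below 0 under these scalings, while Arnt, Egln1 exon 1 (1.8 kb down) and Vhl change sign with division by the background.

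Subunit and hydroxylase genes were then set side by side. The 3 shared subunit regions had a median log2 difference of 0.30 and a range of -0.01 to 0.68. The 8 shared hydroxylase and Vhl regions had a median of 0.03 and a range of -1.42 to 0.30. Within a library, the mean height of the subunit regions exceeded that of the others by 1.13, 1.12 and 0.61 on the log2 scale in controls 1 to 3 and by 1.37, 1.50 and 1.54 in HADA 1 to 3, with no overlap. The hydroxylase mean includes both Egln3 regions, which had passed as lower. Without them the values were 1.10, 0.94 and 0.70 in the controls and 1.08, 1.09 and 1.14 in HADA, and the groups overlapped, so no difference between the classes is read from these values.

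Other genes of the pathway were read at their starts in the same fit. Of 4 partners of VHL in its ligase (Elob, Eloc, Cul2, Rbx1), 0 passed in either direction, with a median log2 difference of -0.01. Of 8 other regulators of HIF turnover 1 passed as higher, P4htm (0.63, limma adjusted p = 0.0243), which encodes a membrane-bound prolyl hydroxylase, and 0 as lower. Over all 14 shared regions of these regulators 3 passed as higher and 0 as lower, against 18.4% and 24.5% of all shared regions. The coactivator list held 6 genes, which were coactivators, their competitors and the Arnt paralogue Arnt2. At their starts 0 passed as higher and 2 as lower, the acetyltransferase gene Kat5 (-0.64, limma adjusted p = 0.0224) and Arnt2 (-1.26, limma adjusted p = 0.0125). The Arnt2 pileups were 13, 23 and 15 in the controls and 11, 9 and 12 in HADA, near the lowest pileup of any peak. Over all 8 shared regions of the coactivator list 1 passed as higher and 2 as lower.

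Among HIF target genes, 16 of 17 listed were matched and had a shared start region, and Ca9 was not matched to the annotation by this symbol. At these 16 starts 2 passed as higher and 0 as lower, with a median log2 difference of -0.13, and over all 26 shared regions of the target genes 2 passed as higher and 2 as lower. The higher ones were Adm, which encodes adrenomedullin (0.89, limma adjusted p = 0.0130), with pileups of 27, 23 and 17 in the controls and 66, 64 and 59 in HADA, and Pdk1, a kinase gene that holds back pyruvate oxidation (0.64, limma adjusted p = 0.00794), with 134, 120 and 103 in the controls and 312, 257 and 287 in HADA. The counts at starts are read against the shared regions at protein-coding starts, of which 21.4% passed as higher and 9.88% as lower. The higher calls at the starts of each list were a smaller share than that. Only the coactivator list, which includes Arnt2, had lower calls at starts, 2 of 6. Counts over all regions of a list are read against all shared regions, of which 18.4% passed as higher and 24.5% as lower. Counts this small carry no further reading. At 7 housekeeping genes 0 starts passed, and their median log2 difference was -0.24. The summed relative height at the HIF target genes was 74.3 to 107 in the controls and 73.2 to 81.1 in HADA. Over the coactivator list it was 22.6 to 29.4 in the controls and 22.0 to 25.3 in HADA.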

How the data were processed

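ATAC-seq peak lists of 3 control and 3 HADA libraries were analysed, grouped by their labels. Per the labels and methods, Trimmomatic was used by the authors for trimming, Bowtie2 for alignment to GRCm39, Picard for the removal of duplicate reads and MACS2 for peak calling; the tool versions, MACS2 options and any Tn5 shift were not given in the sources used here. The deposited lists, 1 per library and not pooled, give a fold enrichment, a −log10 p-value and a −log10 q-value for each peak. Total reads were not analysed here.

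Summit pileup and background were solved from the deposited fold, (pileup + 1) / (background + 1), and the Poisson −log10 p-value; the solution returned the deposited values for 100% of peaks within a relative tolerance of 1e-04. Library background pileup, a stand-in for depth, ranged from 1.69 to 2.05 among controls and from 1.99 to 2.34 among HADA libraries, and a pileup is a count of fragments whose counting error limits the low regions. Peaks of the 21 main chromosomes that shared 1 bp were merged. Genes and starts came from GENCODE mouse M39 (GRCm39), whose build was checked: 32 of 32 scaffold names were found, 0 peaks passed a sequence end, and 22.1% of summits lay within 100 bp of a start against 2.06% after a shift of 100 kb. Log2 pileups of shared regions were centred on each library's median and compared with limma 3.58.1 (R 4.3.3, eBayes with trend, Benjamini-Hochberg adjustment over all 23970 regions at 0.05), a fit tested on simulated data. Single values per library used two-sided exact permutation tests. Peaks of high confidence had a −log10 q-value of at least 10. Python 3.11.15 was used elsewhere. No 2 libraries were duplicates (29 to 120 peaks with identical bounds per pair).

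All 9 genes and their shared or group-only regions were named, with the genes of other lists whose start region passed. The members and lists were chosen with earlier results of these data known. The alternatives were another scaling, quantile normalization, fold rank, a replicate block, stricter peaks or overlap, lists of equal length, and leaving out each library. The values of some single marker genes are not reported here.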

Additional observations from a re-analysis of the deposited data

How the results depend on the processing

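The counts of calls moved with the scaling, the peak threshold and the library left out. With pileups divided by the background, the median log2 difference over shared regions was 0.34 rather than -0.04, 7710 shared regions were higher and 4216 lower (64.6% of calls higher, against 43.0% for 4417 and 5862 in the main scaling), and 3 regions of the 9 genes were higher (Hif1a, Epas1, Egln2) and 1 lower (Egln3 intron). With quantile normalization 2 were higher (Hif1a, Egln2) and 1 lower (Egln3 intron), and 56.1% of all calls were higher (5982 and 4687). By fold rank 1 was higher (Hif1an) and 0 lower, with 1832 higher and 1396 lower regions in all (56.8% higher). Among peaks of high confidence 2 were higher (Hif1a, Egln2) and 2 lower, with 3192 higher and 3582 lower of 16340 regions. Signs turned under division by the background at Arnt (0.37), Egln1 exon 1 (0.25) and Vhl (0.27), under quantile normalization at Arnt (0.11) and Egln1 exon 1 (0.14), and under fold rank at Epas1 (-0.016), Arnt (0.012), Egln2 (-0.14) and Vhl (0.38). The causes were not tested.

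Leaving out 1 library gave 0 to 2 higher and 1 to 2 lower regions at the 9 genes, and 1294 to 4936 higher and 2813 to 5910 lower shared regions in all; the lowest counts, 1294 and 2813, came without HADA 2. The log2 difference then ranged from -0.097 to 0.064 at Arnt, above 0 without control 1 or HADA 1, and from -0.25 to 0.060 at Egln1 exon 1, above 0 without HADA 3. HADA-only regions numbered 1 to 2 and control-only regions 0 to 1, with the higher counts without HADA 1 (Hif3a exon 5 and Egln1 intron 3 added). The HADA-only count was 0 among peaks of high confidence and with lists of equal length. An overlap of 200 bp gave 0 higher and 2 lower. The peak rates per 10000 kept their directions in all 9 alternatives each.

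Deviations of same-numbered libraries from their group means correlated at -0.0797, 0.0751 and -0.376, and those of other pairs at -0.474 to 0.488. With 3 libraries per group such values cannot decide whether same-numbered libraries share a batch. A replicate block gave 0 higher and 2 lower regions at the 9 genes and 3330 higher and 5757 lower in all. With the block the limma adjusted p was 0.219 at Hif1a and 0.243 at Egln2. Of the 130 region values under alternatives, 98 kept direction and call. Depth limits the regions with pileups near 10, where a missing peak may be a low one.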
